A study of Mus musculus with 22 samples.

Results

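The neuregulin and ErbB group holds 8 of the 54356 genes measured, named by gene family, with earlier results of these data known. It has the ligand genes Nrg1, Nrg2, Nrg4 and Hbegf and the receptor genes Egfr, Erbb2, Erbb3 and Erbb4. All 8 were listed in each of the 22 libraries, and all 8 passed the filter on low counts in both fits.

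The study measured poly(A)-selected RNA from C57BL/6 mouse embryos at embryonic day E13.5 by stranded bulk RNA sequencing. The embryos of interest carried a conditional knockout of Prdm16 (cKO), a gene for a zinc finger transcription factor, and were set against littermate controls, whose libraries are titled WT and whose manipulation is labelled Mock. There were 3 cKO and 3 control whole hearts, 4 cKO and 4 control left ventricles, and 4 cKO and 4 control right ventricles. Each tissue thus allows a comparison of cKO with control libraries, and the ventricles also allow a comparison of the sides. The Cre driver that defines the conditional knockout and the sex of the embryos are not given in the sources used here, nor is it said whether any left and right ventricles were dissected from 1 heart. Separate embryos are not named for the libraries either, so p-values measure the spread between these libraries.

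Neuregulins are growth factors with an EGF-like domain that bind ErbB3 and ErbB4, receptor tyrosine kinases of the plasma membrane. ErbB2 has no known ligand of its own and acts as the partner of the other receptors, while ErbB3 has little kinase activity and relies on its partners. In the mouse embryonic heart, Nrg1 is made by the endocardium and acts on ErbB2 and ErbB4 of the adjacent cardiomyocytes, a signal required for trabeculation. ErbB3 is known from the mesenchyme of the endocardial cushions, and HB-EGF, the product of Hbegf, acts through Egfr in valve formation in mice.

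The sequences shown here are the alternative exons by which the main transcripts of 3 members differ, because the reads of those genes were divided between the transcripts. They were read from GENCODE M21 transcripts on GRCm38, 5′ to 3′ on the gene's own strand, with the alternative stretch in capitals and 15 bases of the neighbouring exons in lower case. Erbb4-201 holds a 48-base coding exon, exon 26 at chr1:68043908-68043955 on the minus strand, that Erbb4-202 skips. It is the exon of the CYT-1 form, known to carry a binding site for PI3 kinase.
Erbb4-201: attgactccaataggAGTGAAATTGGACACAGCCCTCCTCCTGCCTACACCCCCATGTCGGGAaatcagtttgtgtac
Erbb4-202: attgactccaataggaatcagtttgtgtac
The second line is the same junction without the exon. In Nrg1, the last part of the EGF-like domain comes from alternative exons. Nrg1-203 uses a 59-base exon at chr8:31837670-31837728 (minus strand, exon 7), the beta form, followed by a 24-base exon at chr8:31831205-31831228 (exon 8). Nrg1-213 uses a 68-base exon at chr8:31838261-31838328 (exon 7), the alpha form.
Nrg1-203, exon 7: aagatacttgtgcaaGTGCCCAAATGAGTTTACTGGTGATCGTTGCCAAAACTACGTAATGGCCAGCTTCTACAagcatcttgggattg
Nrg1-203, exon 8: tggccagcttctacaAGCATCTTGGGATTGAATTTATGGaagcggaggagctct
Nrg1-213, exon 7: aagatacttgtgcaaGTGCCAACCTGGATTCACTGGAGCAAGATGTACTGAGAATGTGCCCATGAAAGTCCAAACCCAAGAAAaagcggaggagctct
In Erbb2, the transcript Erbb2-202 is annotated as a processed transcript without a coding sequence. It keeps an 81-base intron of Erbb2-201 at chr11:98433050-98433130 on the plus strand. Read in the frame of Erbb2-201, that intron holds its first stop at base 46. The frame is then 711 codons long, those read from the intron included, against 1256 codons in Erbb2-201.
Erbb2-202: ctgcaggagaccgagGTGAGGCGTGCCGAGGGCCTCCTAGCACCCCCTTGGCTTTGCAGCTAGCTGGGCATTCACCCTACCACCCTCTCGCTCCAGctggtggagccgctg

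Reads assigned to transcripts numbered 38590751 to 62004017 per whole heart library and 14508722 to 22830716 per ventricle library. The biological coefficient of variation between replicates was 0.184 in the whole heart fit and 0.0929 in the ventricle fit. Prdm16 was lower in every cKO library than in every control library of its tissue in CPM (reads scaled to library size), with log2 fold changes of -1.04 in the whole heart, -1.19 in the left ventricle and -0.75 in the right ventricle. The 10 cardiomyocyte markers were detected in all 6 groups. Whole heart control 1 stood apart, with 18974 genes detected at a common depth against 22554 to 23524 in the rest. Right ventricle control 2 also stood apart, with the cushion mesenchyme markers Postn at 266 TPM (a level scaled to transcript length and library) and Meox1 at 25.8 TPM, against 42 to 47.6 and 1.45 to 1.89 TPM in right ventricle controls 1, 3 and 4.

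Across genes, levels can be compared only per length. Some short annotated transcripts took a large part of a gene's summed TPM from very few reads. Erbb4-204, of 240 bases, took up to 52.7% of the Erbb4 TPM while holding at most 0.203% of the Erbb4 reads, and took over 10% of the TPM in 9 of 22 libraries. Levels between genes are therefore given as TPM summed without transcripts under 500 bases, a choice made after seeing the data.

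On that scale Erbb2 was the most abundant member in all 6 groups, at group means of 29.4 to 36.2 TPM, and its libraries did not overlap those of the next gene in any group. In whole hearts Erbb4 came next, at 15.2 ± 0.268 TPM in the cKO and 11.9 ± 0.87 TPM in controls (SD, n = 3 each). Hbegf followed at 7.87 ± 0.614 TPM in the cKO and 9.23 ± 0.348 TPM in controls. Nrg1 was at 6.38 ± 0.295 TPM in the cKO and 5.64 ± 1.78 TPM in controls, Erbb3 at 4.81 ± 0.567 and 4.35 ± 0.836 TPM, and Egfr at 2.65 ± 0.368 and 2.13 ± 0.158 TPM. Among whole heart controls the libraries of Nrg1 and Erbb3 overlapped, as did those of Nrg2 and Nrg4 at the low end. The members thus spanned levels from Erbb2 to Nrg4, which averaged 0.971 ± 0.296 TPM in cKO and 0.587 ± 0.509 TPM in control whole hearts. Without whole heart control 1, where it was at 0, the control mean of Nrg4 was 0.881 TPM.

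In the ventricles Hbegf came after Erbb2, at 5.71 to 7.47 TPM in group means, and Erbb4 followed at 4.20 to 5.77 TPM. Their libraries overlapped in the left ventricle cKO and did not in the other 3 ventricle groups. Nrg2 ranked differently between the genotypes. In the left ventricle it averaged 4.18 ± 0.766 TPM in the cKO, above Nrg1 (2.89 ± 0.349 TPM) with overlapping libraries, and 0.974 ± 0.355 TPM in controls, below Nrg1 (1.85 ± 0.552 TPM; SD, n = 4 each) with none.

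Whole hearts, which also hold the atria, the valve primordia and the outflow tract, had higher levels of several members than the isolated ventricles. In controls Erbb4 averaged 11.9 TPM in whole hearts against 4.20 TPM in left and 4.91 TPM in right ventricles. Nrg1 averaged 5.64 TPM in whole hearts against 1.85 and 2.14 TPM, and Egfr 2.13 TPM against 0.517 and 0.969 TPM. The whole heart control mean of Nrg1 was 4.63 TPM without whole heart control 1. The right ventricle mean of Egfr was 0.563 TPM without control 2. These differences between dissections were not tested.

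**Figure D1:**
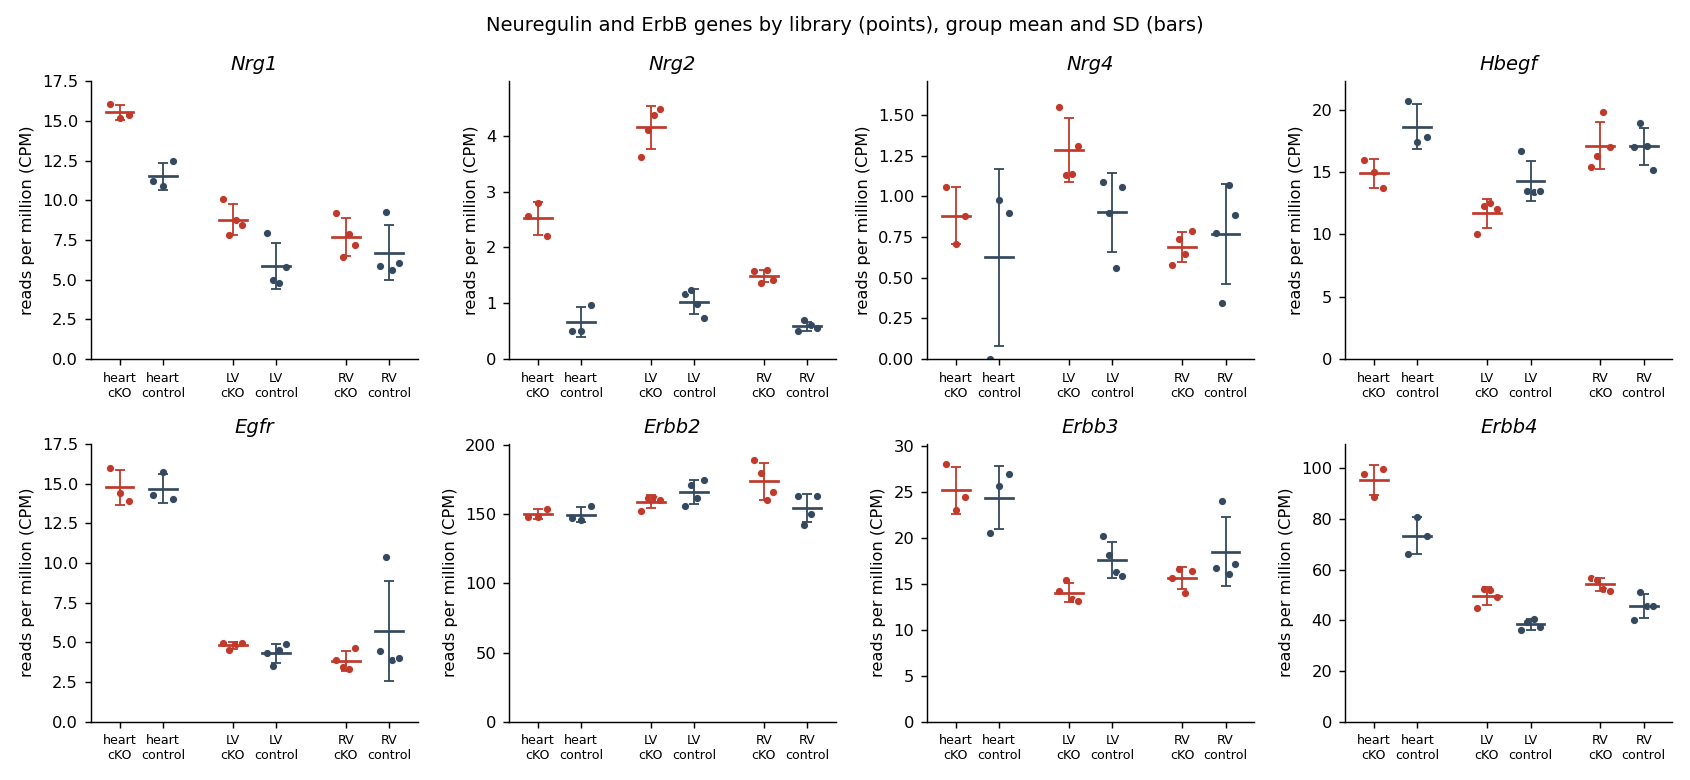
Each panel plots 1 gene, with CPM on the vertical axis and the 6 groups on the horizontal axis; points are libraries, the horizontal line is the group mean and the bar is 1 SD. The cKO libraries of Nrg2 and of Erbb4 lie above the control libraries in each of the 3 tissues, while the Erbb2 libraries of both genotypes lie between 142 and 189 CPM.

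Counted over the group, 3 of 8 members were higher and 0 lower in the whole heart cKO, where 1.96% of 19160 genes were called higher and 2.07% lower. The left ventricle cKO had 3 higher and 1 lower, where 12.3% of 16448 genes were called higher and 13.4% lower. The right ventricle cKO had 2 higher and 0 lower, where 6.12% were called higher and 4.19% lower. A gene was called where its adjusted p was under 0.05. Nrg2 and Erbb4 were higher in all 3 comparisons. The median log2 fold change of the 8 members was 0.21 in the whole heart, 0.27 in the left ventricle and 0.08 in the right ventricle, beside 0.01, 0.00 and -0.01 over all genes tested. The groups did not overlap for 3 members higher and 1 lower in the whole heart (13.8% and 12.9% of all genes), for 3 higher and 2 lower in the left ventricle (14.1% and 15.0%), and for 2 higher and 0 lower in the right ventricle (7.61% and 5.14%).

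The whole heart count was the least stable. It was 0 without any 1 of the 3 cKO libraries, 1 without control 2 or control 3, and 3 without control 1. The left ventricle count of 4 became 2 without left ventricle cKO 1, control 2 or control 3 and 5 without right ventricle control 2. It became 3 without left ventricle cKO 3, cKO 4 or control 1, and without right ventricle cKO 2, cKO 4 or control 1. It stayed 4 without left ventricle cKO 2 or control 4 or right ventricle control 3, with Erbb3 in place of Hbegf. The right ventricle count of 2 became 1 without right ventricle cKO 1, cKO 2, control 1, control 3 or control 4. It became 3 without right ventricle cKO 3 and was 2 without right ventricle control 2.

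For the difference between the left and the right ventricle effect 0 of 8 members were called by edgeR, 2 of them with an unadjusted p under 0.05, where 1.43% of genes were called. DESeq2 called 0 of the 6 for which it gave an adjusted p. Between the sides in the cKO, 2 members were higher and 1 lower in left ventricles, where 14.5% of genes were called higher and 18.3% lower. Between the sides in controls, 1 was higher and 1 lower in left ventricles, where 9.02% were called higher and 12.0% lower.

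**Figure D2:**
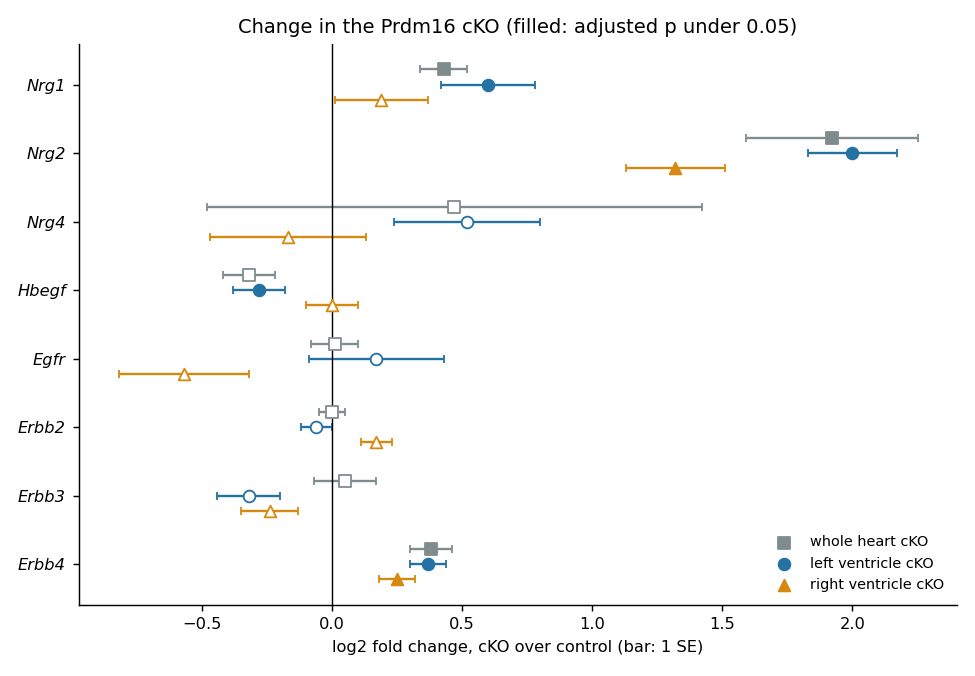
The horizontal axis gives the log2 fold change, cKO over control, with bars of 1 SE for the 8 members listed down the vertical axis; squares are whole heart, circles left ventricle and triangles right ventricle, filled where the adjusted p was under 0.05. Nrg2 lies farthest right, at 1.92, 2.0 and 1.32, and Erbb4 is filled in all 3 tissues at 0.25 to 0.38.

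Among the ligands, Nrg2 had the largest change. This gene encodes a neuregulin that binds ErbB3 and ErbB4. Left ventricles had 3.62, 4.11, 4.38 and 4.49 CPM in cKO libraries, against 1.16, 1.23, 0.990 and 0.744 CPM in controls. Right ventricles had 1.58, 1.37, 1.59 and 1.41 CPM in cKO libraries, against 0.5, 0.694, 0.607 and 0.553 CPM in controls. Whole hearts had 2.56, 2.79 and 2.21 CPM in the cKO, against 0.496, 0.507 and 0.974 CPM in controls. The groups did not overlap in any of the 3 tissues.

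Nrg2 rose 4.01-fold in the left ventricle cKO (log2 fold change 2.0, SE 0.17, adjusted p = 2.24e-07 by edgeR's quasi-likelihood test), 2.50-fold in the right ventricle cKO (1.32, SE 0.19, adjusted p = 1.61e-04) and 3.79-fold in the whole heart cKO (1.92, SE 0.33, adjusted p = 0.021). It stayed past the threshold of 0.05 on the adjusted p in 28 of 28 alternative settings in each ventricle. In the whole heart it did so in 9 of 17. There the adjusted p was 0.115 without cKO 1, 0.121 without cKO 2, 0.0862 without cKO 3 and 0.0512 without control 2. The gene rests on few reads, with 63 to 82 in left ventricle cKO libraries and 14 to 26 in left ventricle controls, and with 24 to 33 in right ventricle cKO libraries and 9 to 14 in right ventricle controls. In bulk tissue, more RNA per cell and more cells of an expressing type cannot be told apart.

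Nrg2 was also the member that differed most between the sides of the heart. Left over right, its log2 fold change was 1.48 in the cKO (SE 0.16, adjusted p = 4.01e-06) and 0.79 in controls (SE 0.19, adjusted p = 0.0172), higher on the left in both. The call in controls was lost without left ventricle control 2 (adjusted p = 0.0834) and without right ventricle control 1 (adjusted p = 0.0531). Its cKO effect was larger in the left ventricle by 0.68 on the log2 scale (SE 0.25), a difference that did not pass the correction (adjusted p = 0.299 by edgeR).

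At the transcript level, Nrg2-203, a coding transcript, took 62.1% to 76.3% of the gene's reads summed over each of the 6 groups. In single libraries its share was 53.3% to 96.3% in ventricles, and ran from 0% in whole heart control 1 to 100% in whole heart control 3. Its log2 fold change, cKO over control, was 2.01 in left ventricles (SE 0.22, adjusted p = 1.50e-04) and 1.38 in right ventricles (SE 0.22, adjusted p = 0.00686). With no filter on low counts the adjusted p was 0.0527 in right ventricles and 0.0011 in left ventricles. With same-numbered cKO and control libraries as a replicate block it was 0.106 in right ventricles and 0.011 in left ventricles. It was the 1 member transcript called of 11 tested in the left ventricle, where 2.05% of all transcripts were called higher, and the 1 called of 11 in the right ventricle, where 0.717% were. In whole hearts 0 of 21 member transcripts were called by edgeR, 2 of them with an unadjusted p under 0.05, and 0.0149% of all transcripts were called. The uncertainty of dividing reads among transcripts is not part of these tests.

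Nrg1, the endocardial neuregulin, was higher in the cKO of whole heart and left ventricle. In whole hearts it had 16.1, 15.2 and 15.4 CPM in the cKO, against 11.2, 10.9 and 12.5 CPM in controls, with no overlap. On the TPM scale whole heart control 1, at 7.67 TPM, lay above the whole heart cKO libraries, at 6.2 to 6.72 TPM. Left ventricles had 10.1, 7.83, 8.76 and 8.43 CPM in the cKO, against 7.94, 4.96, 4.78 and 5.79 CPM in controls. There control 1 lay above cKO 2. The right ventricle had 9.22, 6.43, 7.89 and 7.16 CPM in the cKO and 5.88, 9.27, 5.61 and 6.08 CPM in controls, where control 2 held the highest value of its group.

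Nrg1 changed by a log2 fold change of 0.60 in left ventricles (SE 0.18, adjusted p = 0.0205) and of 0.43 in whole hearts (SE 0.09, adjusted p = 0.0393). The left ventricle call was lost without cKO 1 (adjusted p = 0.0628), control 2 (0.0669) or control 3 (0.0718). The whole heart call held in 7 of 17 alternative settings and was lost without any of the 3 cKO libraries (adjusted p 0.153 to 0.185), without control 2 (0.075) and without control 3 (0.069). For the right ventricle the log2 fold change was 0.19 (95% interval -0.18 to 0.57, adjusted p = 0.57), and 0.39 without right ventricle control 2 (adjusted p = 0.118).

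Of the reads of Nrg1, the beta transcript Nrg1-203 took 68.6% to 80.2% in the 6 groups and the alpha transcript Nrg1-213 took 10.2% to 15.2%. The 2 transcripts differ in length and ends as well as in the exons printed above, so the share rests on all their differences. Of the reads given to both, Nrg1-213 took 19.4%, 18.1% and 15.6% in whole heart cKO libraries and 8.98%, 6.10% and 23.0% in controls. In left ventricles its share was 2.34% to 27.4% in the cKO and 0% to 18.5% in controls, and in right ventricles 8.90% to 16.2% in the cKO and 0% to 23.0% in controls. The groups overlapped in all 3 tissues, at 79 to 180 reads for both transcripts in a ventricle library.

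Hbegf, whose product binds Egfr and ErbB4, was the member called lower in the left ventricle cKO. Erbb3, at a log2 fold change of -0.32 there, lay just outside the threshold (adjusted p = 0.0503 by edgeR). Hbegf had 9.99, 12.33, 12.46 and 12.05 CPM in the left ventricle cKO, against 16.69 CPM in left ventricle control 1 and 13.39 to 13.52 CPM in controls 2, 3 and 4, with no overlap. Its log2 fold change was -0.28 (SE 0.10, adjusted p = 0.0488), just inside the threshold, and the call held in 7 of 28 alternative settings (adjusted p 0.0349 to 0.332). It was lost without any single library of the left ventricle cKO or control, from 0.0549 without cKO 3 to 0.157 without control 1. It was also lost without right ventricle cKO 2 (0.0574), cKO 4 (0.0592), control 1 (0.0576) or control 3 (0.0581), which share the fit.

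Whole hearts had 16, 15 and 13.7 CPM of Hbegf in the cKO, against 20.7, 17.4 and 17.8 CPM in controls. These libraries did not overlap either, with a log2 fold change of -0.32 (SE 0.10, adjusted p = 0.142). For right ventricles the range was 15.4 to 19.8 CPM in the cKO and 15.2 to 18.9 CPM in controls, with a log2 fold change of 0.00 (95% interval -0.20 to 0.20, adjusted p = 0.995). Between the sides of the cKO, Hbegf was lower on the left (log2 fold change -0.55, SE 0.10, adjusted p = 4.83e-04), a call kept in 28 of 28 alternative settings. In controls this left over right difference was -0.27 (SE 0.10, adjusted p = 0.0601). It passed the threshold without left ventricle cKO 1 (0.0467), left ventricle control 1 (0.0193), right ventricle cKO 3 (0.0436) or right ventricle control 4 (0.0408), and also with DESeq2 (0.0421) and limma voom (0.0407).

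Nrg4, a ligand of ErbB4, was close to the limit of detection. Left ventricle libraries held 20 to 27 reads in the cKO and 13 to 20 in controls, right ventricle libraries 11 to 15 and 7 to 23, and whole hearts 39 to 66 and 0 to 50. In CPM the left ventricle groups did not overlap, at 1.13 to 1.55 in the cKO and 0.56 to 1.09 in controls. No cKO against control difference was called, with log2 fold changes of 0.47 in the whole heart (95% interval -1.74 to 2.69), 0.52 in the left ventricle (-0.07 to 1.12) and -0.17 in the right ventricle (-0.81 to 0.47). It was -0.09 in the whole heart without control 1, the library with 0 reads, and -0.42 in the right ventricle without control 2. Most of its reads fell on transcripts not annotated as protein-coding. Nrg4-209, annotated as a processed transcript, took 43.9% to 59.5% and Nrg4-207, annotated for nonsense-mediated decay, 27.1% to 40.8% of them in the 6 groups. Left over right in the cKO, Nrg4 was higher (log2 fold change 0.90, SE 0.29, adjusted p = 0.0253). The call held in 17 of 27 alternative settings. With left and right libraries of the same number as a replicate block the adjusted p was 0.0565. The call was also lost without left ventricle cKO 1 (0.0736) or 4 (0.0524) and without right ventricle cKO 1 (0.0678) or 3 (0.06), with no filter (0.0574), with all 22 libraries in one fit (0.259), with length-scaled counts (0.459) and on both TPM scales (0.252 and 0.286).

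Among the receptors, Erbb4 was higher in the cKO in all 3 tissues. It is the neuregulin receptor of cardiomyocytes. Left ventricle libraries had 44.9, 52.2, 52.0 and 49.2 CPM in the cKO, against 36.1, 39.3, 40.7 and 37.4 CPM in controls. Right ventricle libraries had 56.9, 56.0, 52.3 and 51.4 CPM in the cKO, against 40.0, 51.3, 45.7 and 45.5 CPM in controls. Whole hearts had 97.7, 88.8 and 99.7 CPM in the cKO, against 66.2, 80.8 and 73.2 CPM in controls. No cKO library overlapped the controls of its tissue, although right ventricle control 2, at 51.28 CPM, lay close to the lowest cKO library, at 51.40 CPM.

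The rise of Erbb4 was small in size, 1.29-fold in the left ventricle (log2 fold change 0.37, SE 0.07, adjusted p = 7.17e-04), 1.19-fold in the right ventricle (0.25, SE 0.07, adjusted p = 0.0256) and 1.3-fold in the whole heart (0.38, SE 0.08, adjusted p = 0.0479). The left ventricle call held in 25 of 28 alternative settings and was lost in the 3 that start from TPM (adjusted p 0.23 to 0.328). The part of Erbb4-204 on that scale was not tested. The right ventricle call held in 19 of 28. It was lost without cKO 1 (0.0792), cKO 2 (0.0735), control 1 (0.0782), control 3 (0.0564) or control 4 (0.0577), and was 0.003 without control 2. The whole heart call held in 9 of 17 and was lost without any of the 3 cKO libraries (0.108 to 0.205) or control 3 (0.165). Between the sides of controls, Erbb4 was lower on the left (log2 fold change -0.25, SE 0.07, adjusted p = 0.016). That difference was 0.03 with length-scaled counts (adjusted p = 0.958) and 0.04 on both TPM scales (adjusted p = 0.947 and 0.953), where the direction turned. Left ventricle control 1 held 8.21 TPM of Erbb4, and 4.03 TPM without transcripts under 500 bases. Without those transcripts the control means were 4.20 TPM on the left and 4.91 TPM on the right.

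Reads of Erbb4 were divided between Erbb4-201, with the 48-base exon, and Erbb4-202, without it. These transcripts also differ in the first exon, of 82 bases in Erbb4-201 and 385 in Erbb4-202, so the share does not rest on the printed exon alone. Of the reads given to both, Erbb4-202 took 30.7%, 29.3% and 31.7% in whole heart cKO libraries, against 5.59%, 19.7% and 26.0% in controls. These groups did not overlap. The same held for 12.0% of the 9244 genes for which a split between the main 2 transcripts was computed. The lowest share was that of whole heart control 1.

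In left ventricles the Erbb4-202 share was 17.8%, 56.5%, 27.0% and 32.4% in the cKO and 26.3%, 32.7%, 31.8% and 30.6% in controls. In right ventricles it was 25.6%, 32.9%, 16.7% and 30.3% in the cKO and 20.6%, 27.1%, 25.3% and 19.7% in controls. Both ventricles overlapped between genotypes, where the share did not overlap for 3.46% of genes in the left and 3.72% in the right. Neither Erbb4 transcript was called in any tissue.

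**Figure D3:**
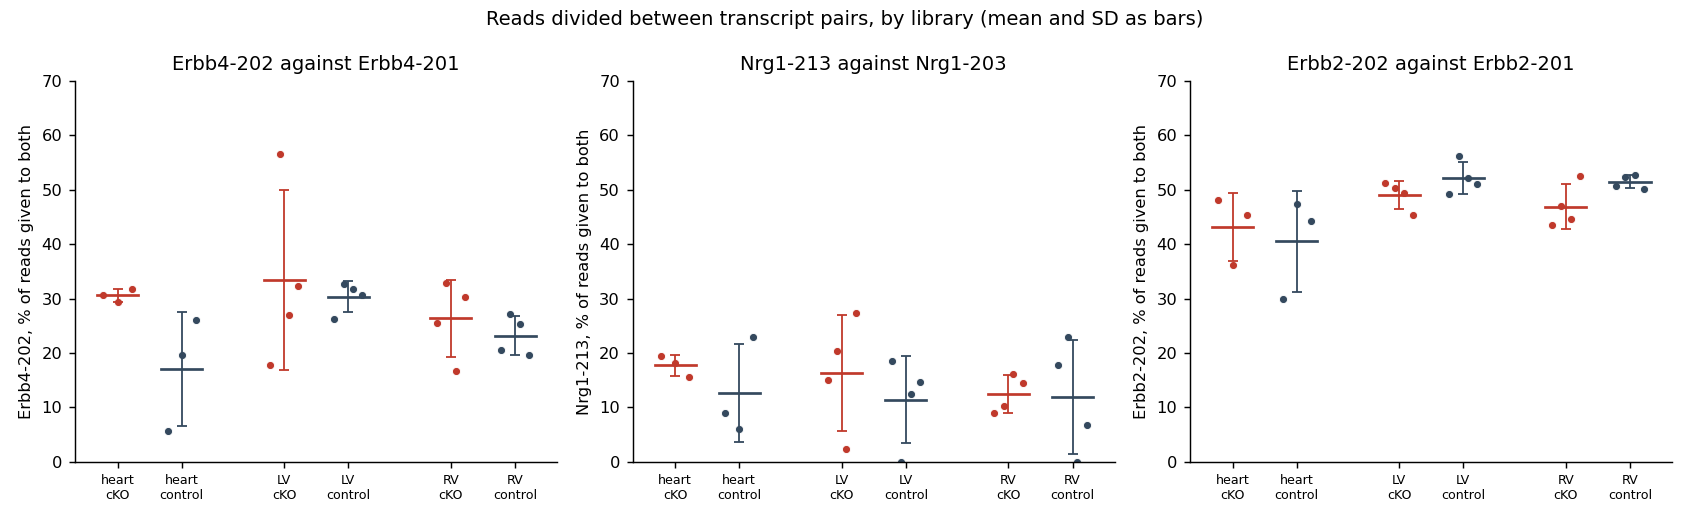
Each panel plots, for 1 pair of transcripts, the percent of the pair's reads given to the named transcript (vertical axis) in each library (points) of the 6 groups (horizontal axis), with group means as lines and SD as bars. The share of Erbb4-202 in whole hearts is 29.3% to 31.7% in the cKO and 5.59% to 26.0% in controls; the ventricle groups overlap.

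Erbb2 was not called in any cKO comparison. In whole hearts it had 148, 148 and 154 CPM in the cKO and 147, 146 and 156 CPM in controls, a log2 fold change of 0.00 with a 95% interval of -0.10 to 0.11. Left ventricles had 152, 162, 162 and 160 CPM in the cKO and 156, 171, 162 and 175 CPM in controls (-0.06, interval -0.18 to 0.06). Right ventricles had 189, 180, 160 and 166 CPM in the cKO and 163, 142, 150 and 163 CPM in controls (0.17, interval 0.05 to 0.29, adjusted p = 0.0668). The right ventricle groups overlapped, and without right ventricle cKO 3 the adjusted p was 0.0349. The difference between the left and the right ventricle effect was -0.23 (SE 0.08, adjusted p = 0.176 by edgeR). Left over right in the cKO it was -0.13 (SE 0.06, adjusted p = 0.0906), and -0.17 without right ventricle cKO 3 (adjusted p = 0.0425).

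The processed transcript Erbb2-202 took 41.6% to 52.5% of the Erbb2 reads in the 6 groups and the coding Erbb2-201 took 47.5% to 58.4%. The pair differs at the 3′ end as well as in the kept intron, so this split is not a measure of intron retention alone. Of the reads given to both, Erbb2-202 took 36.1% to 48.1% in whole heart cKO libraries and 30.0% to 47.3% in controls. It took 45.4% to 51.2% in left ventricle cKO libraries and 49.2% to 56.2% in controls, and 43.5% to 52.6% in right ventricle cKO libraries and 50.2% to 52.8% in controls. The genotypes overlapped in each tissue.

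Erbb3 had 14.3, 15.4, 13.4 and 13.2 CPM in the left ventricle cKO, against 20.2, 18.2, 16.3 and 15.9 CPM in controls. These groups did not overlap, and the log2 fold change of -0.32 (SE 0.12, adjusted p = 0.0503) lay just outside the threshold. It was inside it in 10 of 28 alternative settings, with an adjusted p of 0.00548 without right ventricle control 2, which shares the fit. It was also inside without left ventricle cKO 2 (0.0497), left ventricle control 4 (0.0418) or right ventricle control 3 (0.0448). Right ventricles had 15.7, 16.6, 14.0 and 16.4 CPM in the cKO and 16.7, 24.1, 16.1 and 17.2 CPM of Erbb3 in controls. There the log2 fold change was -0.24 (adjusted p = 0.215), and -0.09 without right ventricle control 2 (adjusted p = 0.565). Whole hearts had 28.1, 23.1 and 24.5 CPM in the cKO and 20.6, 25.7 and 27.0 CPM in controls, with a log2 fold change of 0.05 (95% interval -0.22 to 0.31).

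Egfr had 4.94, 4.5, 4.89 and 4.98 CPM in the left ventricle cKO and 4.31, 3.50, 4.52 and 4.89 CPM in controls. Right ventricles had 3.89, 3.47, 3.30 and 4.65 CPM in the cKO and 4.44, 10.4, 3.88 and 4.03 CPM in controls. There the log2 fold change was -0.57 (SE 0.25, adjusted p = 0.187), and -0.10 without control 2 (adjusted p = 0.716). In whole hearts the cKO had 16, 14.4 and 13.9 CPM and controls 14.3, 15.7 and 14.0 CPM, a log2 fold change of 0.01 (95% interval -0.20 to 0.23). Genotypes overlapped in each tissue.

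Among the right ventricle controls, 6 of 8 members were highest in control 2, the library with the high cushion markers. They were Egfr, Erbb3, Nrg1, Hbegf, Erbb4 and Nrg2, of which Egfr, Erbb3 and Nrg1 are plotted. Erbb2, at 142 CPM, and Nrg4, at 0.347 CPM, were lowest in that library. The share of all genes that were highest in it was not computed. The summed cushion and valve markers were 761 TPM in that library, against 367 to 422 TPM in the other 3 controls and 368 to 494 TPM in the right ventricle cKO. The part of cushion tissue in these members' levels was not tested.

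**Figure D4:**
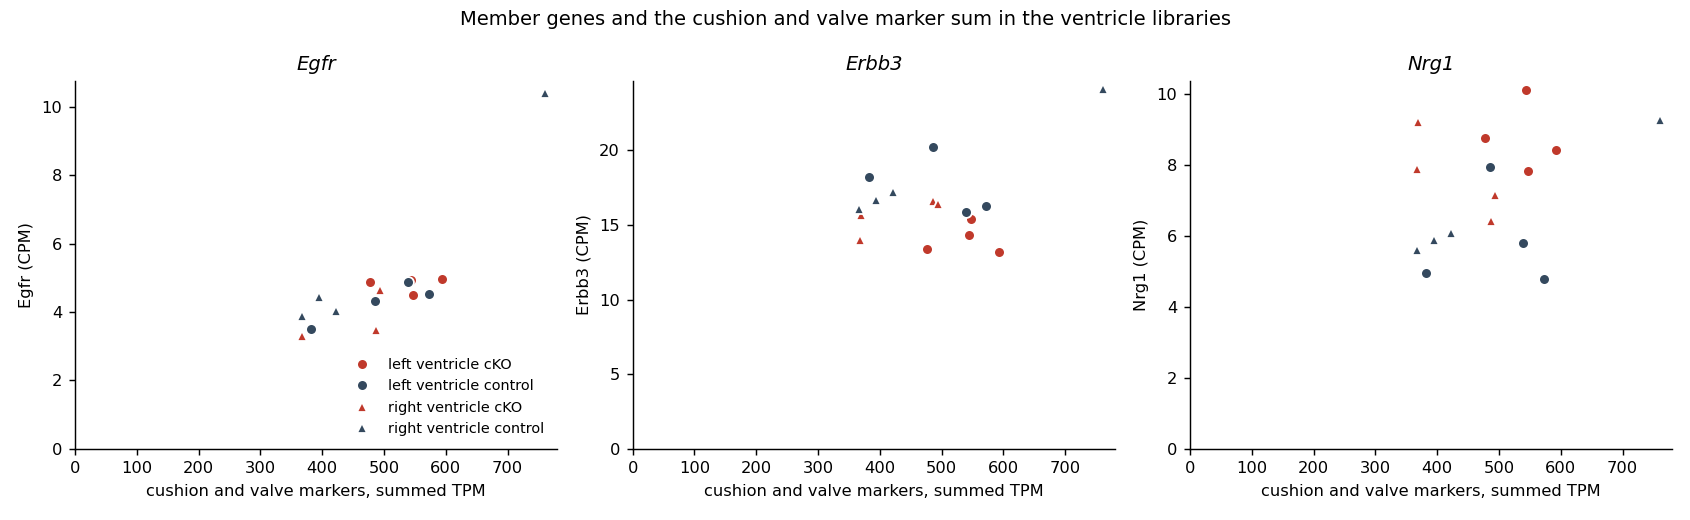
Each panel plots 1 gene in CPM (vertical axis) against the summed TPM of 10 cushion and valve mesenchyme markers (horizontal axis) in the 16 ventricle libraries; colours are genotypes and symbols are sides. Right ventricle control 2 lies apart at 761 TPM, with 10.4 CPM of Egfr, 24.1 CPM of Erbb3 and 9.27 CPM of Nrg1.

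Of the 7 other ligands with an EGF-like domain, 6 were tested in the whole heart and 4 in the ventricles. Of these, 1 was called in the whole heart, 3 in the left and 2 in the right ventricle, all higher in the cKO. Across all genes 1.96%, 12.3% and 6.12% were called higher there. The left ventricle count includes Areg, which was among the 4 tested only because it passed the filter through the left ventricle cKO. Btc was not called and averaged lower CPM in the cKO of each tissue. It had 1.79 against 2.02 in whole hearts, 1.23 against 1.89 in left ventricles and 1.39 against 1.89 in right ventricles. In the left ventricle all 4 tested had an unadjusted p under 0.05 by edgeR. Tgfa, a ligand of Egfr, was higher in the whole heart (log2 fold change 0.51, adjusted p = 0.0186), the left ventricle (0.56, adjusted p = 0.00851) and the right ventricle (0.67, adjusted p = 0.00628). Egf, another ligand of Egfr, was higher in the left (0.55, adjusted p = 0.00567) and right ventricle (0.86, adjusted p = 1.61e-04). In the whole heart Egf had 4.27, 5.30 and 4.60 CPM in the cKO and 2.11, 3.16 and 2.6 CPM in controls, with an adjusted p of 0.061. Without whole heart control 1, 2 of the 6 ligands were called there.

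Areg, which encodes amphiregulin, an Egfr ligand, had 3.73, 3.49, 4.10 and 3.34 CPM in the left ventricle cKO, against 0.274, 0.0945, 0.215 and 0.266 CPM in controls. This was a 17.2-fold difference (log2 fold change 4.10, SE 0.25, adjusted p = 6.42e-09) on 61 to 72 reads in the cKO and 2 to 5 in controls. Right ventricles had 0.336, 0.455, 0.471 and 0.261 CPM in the cKO and 0.278, 0.298, 0.280 and 0.221 CPM in controls (0.47, adjusted p = 0.534). The left effect exceeded the right by 3.63 (SE 0.40, adjusted p = 3.00e-04), the largest such difference among the members and these ligands. DESeq2 gave 3.68 (SE 0.63) for it and no adjusted p. Areg passed the filter on low counts through the left ventricle cKO alone. Right ventricle libraries held 5 to 8 reads in the cKO and 4 to 6 in controls. With no filter, edgeR gave a left ventricle log2 fold change of 4.11 (adjusted p = 1.72e-10). The left effect then exceeded the right by 3.63 (adjusted p = 1.63e-04). Nrg3, the remaining neuregulin, had 0 to 3 reads in each library.

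Across all genes, the shares called higher and lower were 1.96% and 2.07% in the whole heart cKO, 12.3% and 13.4% in the left ventricle cKO, and 6.12% and 4.19% in the right ventricle cKO. The list counts that follow stand beside these shares, and no test of a list against them was made. The machinery that cuts ligands from the membrane or moves them to it was given by 11 genes. Of these, 4 were higher and 0 lower in the left ventricle cKO, and 1 was higher and 0 lower in the whole heart cKO. In the right ventricle edgeR and DESeq2 each called 0, and 4 had an unadjusted p under 0.05 by edgeR. Adam10, a sheddase, was higher in the left ventricle (log2 fold change 0.32, adjusted p = 1.04e-04) and whole heart (0.30, adjusted p = 0.0241), with 0.14 in the right ventricle (adjusted p = 0.0905). Adam9 (0.31), Bace2 (0.34) and Adam12 (0.32) completed the left ventricle count, with adjusted p of 3.11e-04, 9.52e-04 and 0.0126. Without right ventricle control 2 the list had 2 higher in the right ventricle and 6 higher in the left, with 0 lower in both. The median log2 fold change of the list was 0.07 in the whole heart, 0.14 in the left and 0.04 in the right ventricle.

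The list plotted as ErbB attenuators held 12 regulators of ErbB receptors, not all of which only attenuate. Of these 12, 3 were higher and 1 lower in the left ventricle cKO, and 1 was higher and 0 lower in the right ventricle. Whole hearts had 0 called by edgeR, with 3 at an unadjusted p under 0.05, and 1 called by DESeq2. Rab11fip1, an endosomal trafficking protein, was higher in the left (0.56, adjusted p = 1.20e-05) and right ventricle (0.38, adjusted p = 0.00117). Errfi1, an inhibitor of ErbB kinases, was higher in the left ventricle (0.23, adjusted p = 0.0249), as was Erbin (0.14, adjusted p = 0.0383), which binds ErbB2. Cblb, a ubiquitin ligase, was lower there (-0.16, adjusted p = 0.0296).

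Of 32 adaptors and kinases downstream, 1 was higher and 1 lower in the whole heart, 5 and 2 in the left ventricle, and 1 and 1 in the right ventricle. Without right ventricle control 2 the counts were 7 and 2 in the left and 2 and 1 in the right. Ptpn11, the phosphatase SHP2, was higher in the whole heart (0.28, adjusted p = 0.0126), left ventricle (0.37, adjusted p = 8.68e-06) and right ventricle (0.30, adjusted p = 1.79e-04). Gab1, the docking protein that recruits SHP2 and PI3 kinase, was lower in the same 3 tissues (-0.28, -0.29 and -0.23, with adjusted p of 0.0138, 2.19e-05 and 6.25e-04). Pik3r1, the p85 subunit gene of PI3 kinase, was higher in the left ventricle (0.39, adjusted p = 2.02e-04), and Pik3cb, a catalytic subunit gene, likewise (0.34, adjusted p = 0.0143).

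Of 16 genes known to respond to ERK signalling, 15 were tested. The left ventricle cKO had 5 higher and 1 lower. In the whole heart edgeR called 0, with 2 at an unadjusted p under 0.05, and DESeq2 called 2. In the right ventricle edgeR called 0, with 3 at an unadjusted p under 0.05, and DESeq2 called 1. Without right ventricle control 2 edgeR called 1 there, lower. Spred1 (0.20, adjusted p = 0.0102), Dusp4 (0.27, adjusted p = 0.0239) and Spry1 (0.33, adjusted p = 0.0261), which are feedback inhibitors of the pathway, were among those higher, and Ier3 was lower (-0.35, adjusted p = 0.0113). Spry1 in the right ventricle had a log2 fold change of 0.32 (adjusted p = 0.0525). The medians of the 3 downstream lists lay between -0.04 and 0.15 in the 3 tissues, beside the value near 0 for all genes. RNA levels do not show receptor activity.

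**Figure D5:**
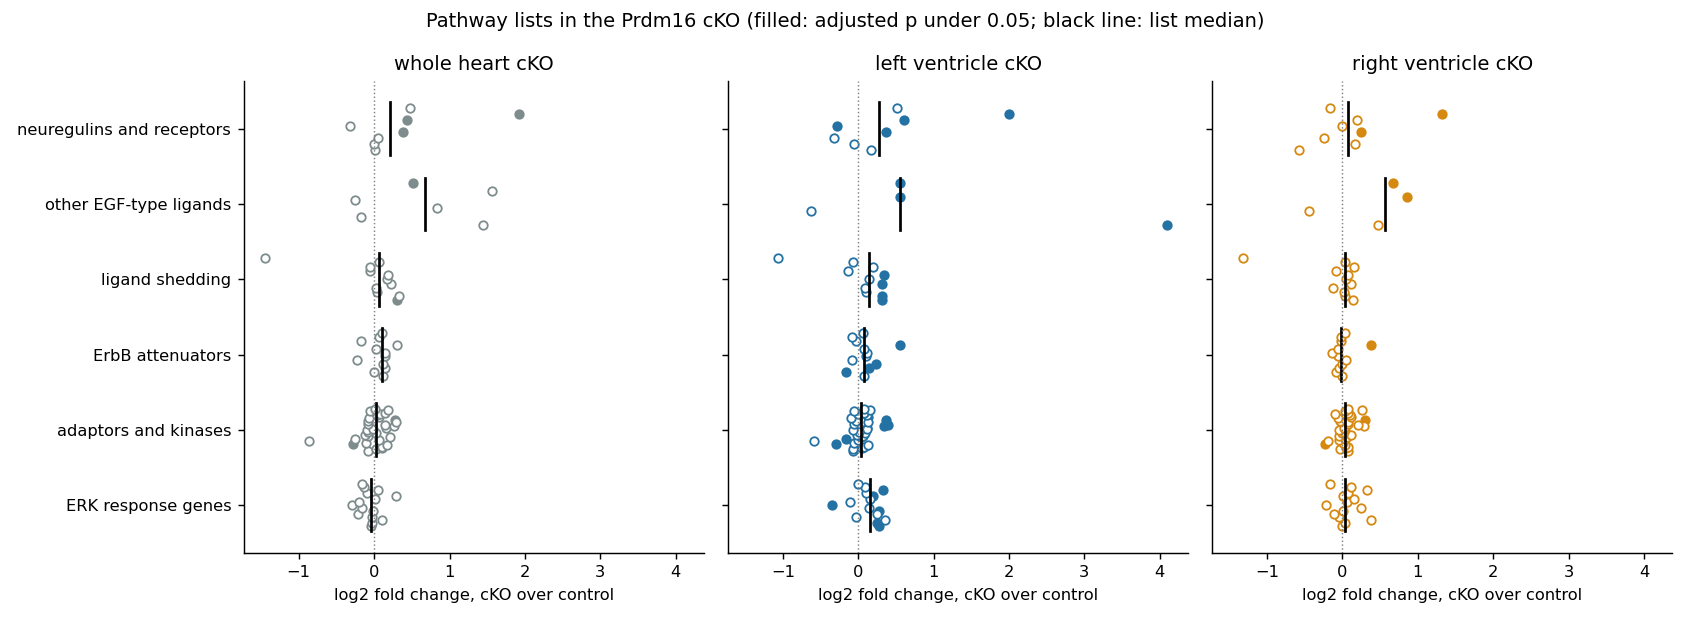
Panels are the 3 tissues, the horizontal axis is the log2 fold change, cKO over control, and rows are the lists of genes; points are genes, filled where the adjusted p was under 0.05, and the black line is the list median. In the left ventricle the filled point at 4.10 is Areg; most genes of the downstream lists lie within 0.5 of 0.

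Levels of cell type markers moved with genotype beside these genes. The 10 endothelial and endocardial markers, the cells that make Nrg1, summed to 544 to 586 TPM in cKO and 441 to 485 TPM in control whole hearts, to 583 to 642 TPM in cKO and 457 to 485 TPM in control left ventricles, and to 482 to 514 TPM in cKO and 437 to 464 TPM in control right ventricles. Of them 7 were higher and 1 lower in the left ventricle cKO, in the whole heart 2 and 0, and in the right ventricle 3 and 1 (5 and 1 without right ventricle control 2). The 10 cardiomyocyte markers, the cells of Erbb4, summed to 32800 to 38800 TPM in cKO and 43900 to 46400 TPM in control left ventricles, where 0 were higher and 8 lower. They summed to 21700 to 22600 TPM in cKO and 25600 to 26800 TPM in control whole hearts (0 higher, 4 lower). In right ventricles they summed to 41900 to 47100 TPM in the cKO and 41700 to 47600 TPM in controls, where edgeR called 0, with 5 at an unadjusted p under 0.05, and DESeq2 called 2. Without right ventricle control 2 edgeR called 6 there, all lower. Their part in the member differences was not tested.

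Of the other marker lists, 7 of 10 epicardial markers were higher in the left ventricle cKO and 1 in the right ventricle, with 0 lower in both. In the whole heart edgeR called 0, with 3 at an unadjusted p under 0.05, and DESeq2 called 1. The left ventricle sums were 252 to 275 TPM in the cKO and 189 to 204 TPM in controls. Of 10 cushion and valve markers, 1 was higher and 1 lower in the left ventricle, and 0 and 1 in the right. Without right ventricle control 2 edgeR called 0 in the right, and the median log2 fold change of the list there was 0.36, against -0.77 with it. In the whole heart edgeR called 0, with 4 at an unadjusted p under 0.05, and DESeq2 called 3. Without whole heart control 1 edgeR called 1 cushion and 1 epicardial marker there, both higher, and 3 endothelial markers, all higher. Atrial cardiomyocyte genes, 11 in number, had 7 higher and 0 lower in the cKO of each tissue. Of 9 erythroid markers tested, 1 was higher in the left ventricle and 4 in the right (0 without right ventricle control 2), and in the whole heart edgeR and DESeq2 each called 0, with 0 at an unadjusted p under 0.05. Of 10 neural crest and glial markers, a population in which Erbb3 is also known, 6 were tested in the whole heart and 3 in the ventricles, with 1 called, higher, in the left ventricle. In the whole heart and the right ventricle edgeR and DESeq2 each called 0 of them, with 0 at an unadjusted p under 0.05. Foxd3 was under 0.1 TPM in every library, and Sox10 was at 0 in the 4 right ventricle cKO libraries.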

How the data were processed

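Per the labels' protocols, total RNA was prepared with TRIzol (RNA integrity numbers 6.1 to 10), and libraries with a stranded mRNA kit. The submitters' processing notes name Salmon 1.2.1 and DESeq2 1.22.2 as tools, with GRCm38.p6 and mm10 as builds. The deposited files give, for 140658 transcripts, estimated counts that are neither scaled between libraries nor whole. The authors' deposited TPM are scaled to effective length and library.

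Transcripts were matched to GENCODE M21 (140137 found; the remaining 521, which took no more than 0.204% of any library, were not used here). Sums of the estimated counts over each of 54356 genes were rounded, and TPM were added up likewise. Tests used edgeR 4.0.16 in R 4.3.3 (TMM factors, filterByExpr, quasi-likelihood). The p-values were adjusted by Benjamini-Hochberg over all genes or transcripts tested, with a threshold of 0.05. The 6 whole hearts were fitted alone and the 16 ventricle libraries with 4 group means. Intervals are 95% from the moderated t distribution of the fit. CPM carry the TMM factors of these fits. The tests were checked on simulated counts. Reads of overlapping transcripts are divided by the estimation, which adds error that is not shown.

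Members and lists were chosen with earlier results of these data known. Leaving out whole heart control 1 or right ventricle control 2 from the list counts and mean TPM was an alternative added after seeing the data. Genes named outside the group were taken by rule: from each pathway list up to 4 with the smallest p per tissue, every called EGF-type ligand, single markers whose level moved with a member, and the 3 protein-coding genes most alike in pattern. Of the marker list genes, Ahsp was not matched. Deviations of same-numbered cKO and control libraries from their group means had correlations from -0.452 to 0.306. For same-numbered left and right ventricles the correlations were -0.135 to 0.194 in controls and 0.144 to 0.356 in the cKO. Libraries of different numbers were not compared, so these values cannot show whether the numbers pair libraries, and the labels do not say. Alternatives were RLE factors or library totals, other filters, DESeq2 1.42.0, limma 3.58.1 (voom with quality weights, or log2 of TPM plus 1 or 0.1), length-scaled counts, other sets of libraries in the fit, a replicate block, and leaving out each library.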

Additional observations from a re-analysis of the deposited data

Results flagged for a closer look

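In 32 groups of 4 ventricle libraries, 5 member values lay farther from the rest of their group than Dixon's test allows at the 95% level, which chance does in about 1 in 20 groups. In right ventricle control 2, the library with high cushion markers, Nrg1 was 9.27 CPM, Egfr 10.4 CPM and Erbb3 24.1 CPM, each the highest of its group. Hbegf was lowest in left ventricle cKO 1, at 9.99 CPM. Hbegf was highest in left ventricle control 1, at 16.7 CPM.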

How the results depend on the processing

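Of 1239 member fold changes computed under alternatives, 1141 kept their side of the threshold, 75 lost a call, 20 gained one and 3 changed sign from a called value; another 36 changed sign with no call in either fit, counted among the 1141. The 3 sign changes were those of Erbb4 in left over right ventricle of controls, 0.03 with length-scaled counts and 0.04 with each TPM scale.

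The count of members called in the whole heart (3) was 0 with length-scaled counts, 0 on both TPM scales and 0 with the replicate block, and 0 to 3 with 1 library left out. In the left ventricle (4) it was 2 with length-scaled counts and on both TPM scales, and 2 to 5 with 1 library left out; the replicate block gave 4, with Hbegf lost (adjusted p 0.098) and Erbb3 gained (0.0152). In the right ventricle (2) it was 1 with length-scaled counts, on both TPM scales and with only the groups compared in the fit, and 1 to 3 with 1 library left out. Left over right in controls (2) gave 1 with library totals, length-scaled counts and both TPM scales, 3 with the replicate block (Hbegf gained, adjusted p 0.0361), and 1 to 3 with 1 library left out. Left over right in the cKO (3) gave 2 to 3 with 1 library left out and 2 with the replicate block, where the adjusted p of Nrg4 was 0.0565. Member transcripts called in the left ventricle (1) were 1 to 2 with 1 library left out; in the right ventricle (1) they were 0 with no filter and 0 with the replicate block, where the adjusted p of Nrg2-203 was 0.106. The cause of these changes was not tested. Over all genes, the whole heart count of 773 was 135 with length-scaled counts, 218 with the replicate block, 1292 without control 1 and 184 to 238 without a cKO library; the right ventricle count of 1696 was 2418 without control 2, 1052 with only the groups compared in the fit and 831 with length-scaled counts; the left ventricle count of 4216 was 2683 with length-scaled counts. Leaving out transcripts under 500 bases moved the mean TPM of Nrg2 to 4.18 in left ventricle cKO and to 0.974 in left ventricle controls. Those means still include Nrg2-202, of 630 bases, and Nrg2-201, of 899 bases. Depth limits Nrg2 and Nrg4, with under 100 reads in each ventricle library.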

Other observations

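The protein-coding genes whose log2 CPM followed each member most closely over the 16 ventricle libraries were listed as a description, among 11336 candidates; the libraries share genotype and side as sources of variation. For Erbb4 they were Mamld1 (Pearson r 0.95), Colgalt1 (0.945) and Pofut2 (0.945), and the same 3 came first without right ventricle control 2. For Nrg2 they were Mon2, Sec23a and Wnt5a, at 0.976 each, of which 1, Sec23a, stayed among the first 3 without that library. Nrg1 was closest to Megf9 (0.833), P4hb (0.83) and Zfp9 (0.828), and Hbegf to Calm2 (0.926), Pno1 (0.912) and Eif3b (0.91); 0 of either 3 stayed without that library. Erbb3 was closest to Slc35e4 (0.875), Haus6 (0.853) and Orc1 (0.836), and Erbb2 to Tns1 (0.811), Hif3a (0.793) and Ncoa1 (0.792), with 1 of each 3 staying.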
